A study of Mus musculus with 6 samples.

Results

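The genes described here are Stfa1, Stfa2, Stfa3 and Stfa2l1, which belong to the stefin A gene cluster on chromosome 16, together with Cstb (stefin B) and Cst3 (cystatin C). These 6 genes were taken from a list of stefins and cystatins by their gene symbols, out of 31053 genes counted in every library. They were chosen by their measured difference between suspension and adherent libraries, the counts of these same libraries, so their levels in those fractions are given as a description, with no test. All 6 genes were detected in all 6 libraries and passed the filter on low counts, which kept 14912 of the 22019 genes with any read.

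Fetal lung cells of wild type C57BL6 mice at embryonic day E17 had been dissociated with liberase, frozen in DMSO, and plated on a thin coat of dilute Matrigel. The medium, called HSPC media in the labels, contained mTPO, IL6, SCF, FGF, VEGF and Flt3, and the wells were rinsed and refreshed on day 3. On days 4, 5 and 6 the floating cells were collected as the suspension fraction, while the attached cells were released with accutase and sorted for live VE-cadherin-positive cells as the adherent fraction. Each fraction and day gave 1 library made with the 10x Genomics chemistry for transcript ends, so each fraction has 3 libraries, and strain, stage, freezing, matrix and medium are the same in all of them. Because only the adherent cells were sorted, the sort and the fraction cannot be told apart, and no label tells if each day was a culture of its own or how many fetuses were pooled. P-values across days therefore measure the spread between these libraries, which may be technical.

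Stefins and cystatins are inhibitors of papain-like cysteine proteases, the cathepsins that digest protein in lysosomes. Stefins lack a signal peptide and act inside the cell, whereas cystatin C carries one and is secreted. A wedge of the protein enters the active site cleft of the protease, and the middle of that wedge is a conserved loop of glutamine, any residue, valine, any residue and glycine. Mice carry several copies of the stefin A gene side by side, and stefin A transcripts are known in mouse neutrophils and their precursors.

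The coding bases of that loop are shown first, because they let the family relation be read directly. Each line gives 45 coding bases from GENCODE M21 transcripts (GRCm38), 5′ to 3′ on the gene's own strand, with the 5 codons of the loop in capitals.
Stfa1: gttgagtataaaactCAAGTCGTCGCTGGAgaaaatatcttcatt
Stfa2: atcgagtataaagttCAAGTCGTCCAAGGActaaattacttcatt
Stfa2l1: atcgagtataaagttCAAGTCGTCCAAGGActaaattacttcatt
Stfa3: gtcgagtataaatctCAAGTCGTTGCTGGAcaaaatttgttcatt
Cstb: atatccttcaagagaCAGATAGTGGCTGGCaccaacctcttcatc
Cst3: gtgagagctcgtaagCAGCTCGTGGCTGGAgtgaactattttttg
The loop pattern was found 1 time in each coding sequence. Stfa2 and Stfa2l1 had the same 45 bases, and over their whole coding sequences of 312 bases 96.5% of bases were identical. The next closest pair among the 6 genes was Stfa3 with Stfa2l1, at 81.7%. Stfa1 was 79.8% identical to Stfa3, and Cstb was 53.2 to 59.6% identical to the stefin A genes listed. Outside the list, the cluster gene BC100530 was 98.0% identical to Stfa1 over 294 coding bases.

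This closeness bears on the counts, because a read that maps equally well to more than 1 place is not counted for a gene in these files. Reads that mapped to several places made up 13.9 to 15.5% of reads in suspension libraries and 18.7 to 22.6% in adherent libraries. In windows of 90 bases, a read length assumed here because the sources used do not state it, 90.5% of those in the last 500 bases of the Stfa1 transcript had no identical window in a transcript of another gene. When windows within 3 mismatches of another stefin or cystatin gene were also set aside, 15.6% remained for Stfa1, 48.2% for Stfa2 and 40.0% for Stfa2l1. For BC100530 the values were 64.5% and 13.6%, and for Stfa3, Cstb and Cst3 they were 100% by either measure. The counts of Stfa1, Stfa2 and Stfa2l1 are therefore less certain as values of a single gene than those of Stfa3, Cstb and Cst3. How the multimapping reads would divide among the genes was not tested.

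Stfa1 (ENSMUSG00000071562, chr16:36276951-36285373 in mm10, plus strand) encodes a stefin A that inhibits cysteine cathepsins in the cytosol. Its level was 3669, 3853 and 9640 CPM (reads of the gene per 1000000 gene reads, after TMM scaling of the totals) in suspension libraries on days 4, 5 and 6, against 36, 103 and 107 CPM in adherent libraries. Every suspension library was far above every adherent one, and suspension day 6 stood above the other two suspension days. The mean was 5721 ± 3396 CPM in suspension and 82.1 ± 39.9 CPM in adherent libraries (SD, n = 3 each). The ratio of suspension to adherent was 102 on day 4, 37.3 on day 5 and 90.2 on day 6.

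Stfa2 (ENSMUSG00000022902, chr16:36403992-36408457, minus strand) encodes a second stefin A. Stfa2 had 365, 501 and 1829 CPM in suspension libraries on days 4, 5 and 6, against 1.89, 11.7 and 17.8 CPM in adherent libraries. The fractions did not overlap, adherent day 4 was the lowest library and suspension day 6 the highest. The mean was 899 ± 809 CPM in suspension and 10.5 ± 8.02 CPM in adherent libraries (SD, n = 3 each), with day ratios of 193, 43.0 and 103.

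Stfa2l1 (ENSMUSG00000059657, chr16:36156811-36161953, plus strand) is the near copy of Stfa2 towards the other end of the cluster. Stfa2l1 had 556, 705 and 2025 CPM in suspension libraries on days 4, 5 and 6, against 2.79, 15.8 and 23.3 CPM in adherent libraries. Its order of libraries was the same as that of Stfa2, again with no overlap. The mean was 1095 ± 809 CPM in suspension and 14.0 ± 10.4 CPM in adherent libraries (SD, n = 3 each), with day ratios of 199, 44.5 and 87.0.

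Stfa3 (ENSMUSG00000054905, chr16:36450537-36455392, minus strand) is the stefin A gene of the list whose transcript end is distinct from the rest of the family. Stfa3 had 582, 700.3 and 2173 CPM in suspension libraries on days 4, 5 and 6, against 5.95, 18.3 and 16.1 CPM in adherent libraries. The fractions did not overlap, and the highest adherent library was day 5 rather than day 6. The mean was 1152 ± 887 CPM in suspension and 13.5 ± 6.60 CPM in adherent libraries (SD, n = 3 each), with day ratios of 97.7, 38.2 and 135. The part of shared windows in the levels of the other stefin A genes was not tested.

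Cstb (ENSMUSG00000005054, chr10:78425669-78427622, plus strand) encodes stefin B, an intracellular inhibitor made by most cell types. Cstb had 1427, 1175 and 1497 CPM in suspension libraries on days 4, 5 and 6, against 535, 631 and 884 CPM in adherent libraries. The fractions did not overlap, but the distance between them was small beside that of the stefin A genes. The mean was 1366 ± 169 CPM in suspension and 683 ± 180 CPM in adherent libraries (SD, n = 3 each), and the day ratios were 2.67, 1.86 and 1.69.

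Cst3 (ENSMUSG00000027447, chr2:148871722-148875692, minus strand) encodes cystatin C, the secreted inhibitor found in most body fluids. Cst3 had 961, 841 and 869 CPM in suspension libraries on days 4, 5 and 6, against 485, 594 and 883 CPM in adherent libraries. The fractions overlapped, since adherent day 6 lay between suspension days 4 and 6. The mean was 890.3 ± 62.7 CPM in suspension and 654 ± 206 CPM in adherent libraries (SD, n = 3 each), and the day ratios were 1.98, 1.42 and 0.984.

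**Figure D1:**
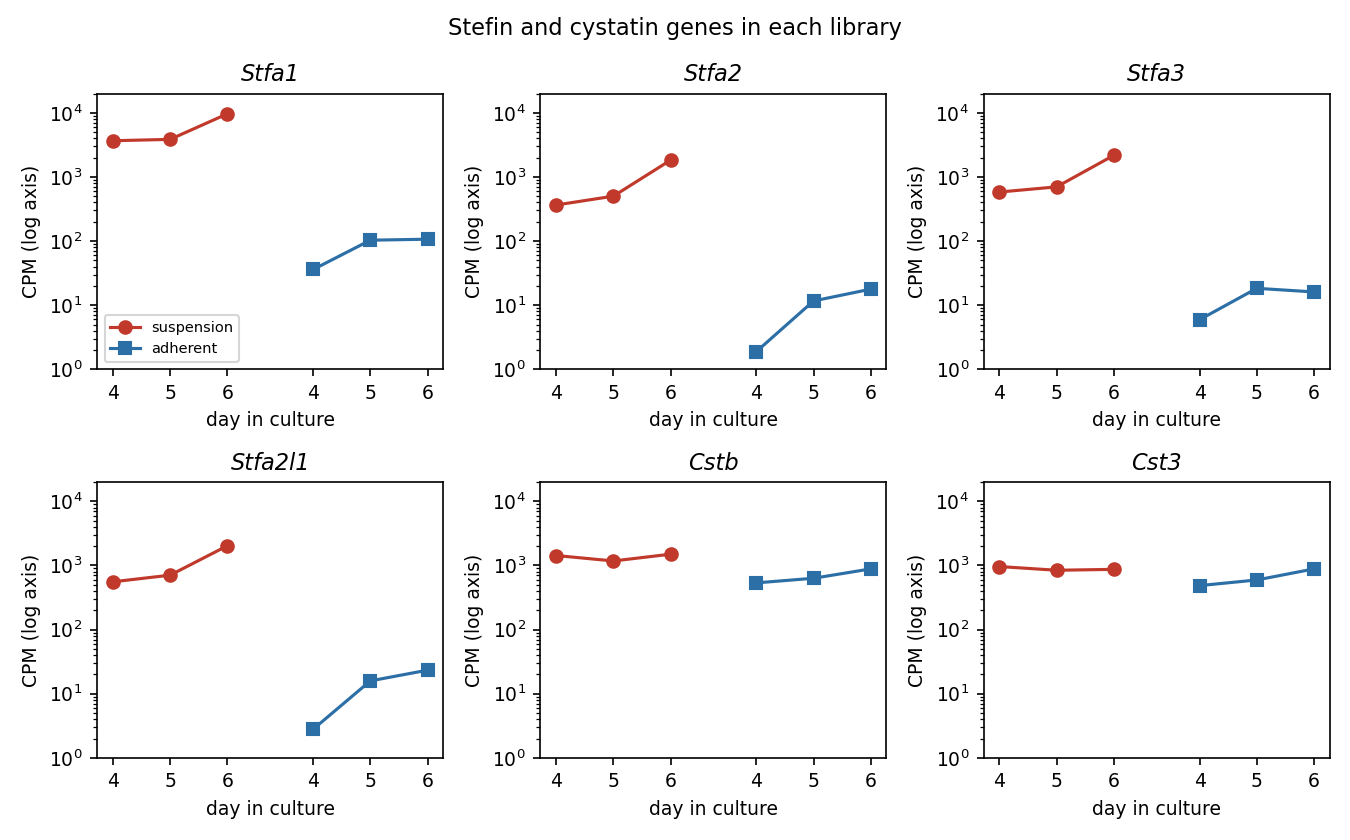
Level of each of the 6 genes in CPM (log axis) by day in culture, with suspension libraries as red circles and adherent libraries as blue squares, 1 point per library. The stefin A genes are separated by at least 37.3 times on every day, while Cstb and Cst3 stay within 2.67 times.

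All told, 5 of the 6 genes had every suspension library above every adherent one, and Cst3 was the exception. Among all genes tested, 33.4% had that pattern, and no reading is drawn from that because the genes were picked on this difference. The fitted log2 ratio of suspension over adherent was 6.12 ± 0.67 for Stfa1, 6.43 ± 1.12 for Stfa2, 6.42 ± 0.78 for Stfa3 and 6.29 ± 1.0 for Stfa2l1 (SE). For Cstb it was 1.0 ± 0.21 and for Cst3 0.45 ± 0.23. The files hold reads summed over all cells of a library, so fewer cells of a type and less RNA per cell cannot be told apart.

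The stefin A genes lie in a block of 335 kb (chr16:36119946-36455392) that holds 10 annotated family genes, 5 on each strand. The 6 that are not on the list are Csta1, Gm5483, Gm5416, 2010005H15Rik, BC117090 and BC100530. BC100530, the near copy of Stfa1, had 2345, 2593 and 7505 CPM in suspension libraries on days 4, 5 and 6, against 24.6, 66.1 and 82.8 CPM in adherent libraries. Gm5483 had 1501, 1799 and 4448 CPM in suspension, against 11.8, 62.6 and 65.8 CPM in adherent libraries. 2010005H15Rik had 289, 388 and 899.7 CPM in suspension, against 3.69, 45.7 and 34 CPM in adherent libraries. In each of these genes suspension day 6 was the highest library and adherent day 4 the lowest, as in the listed stefin A genes.

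The remaining genes of the block were low. Gm5416 had 35.3, 40.4 and 88.3 CPM in suspension libraries on days 4, 5 and 6, against no read on day 4 and 0.705 and 1.77 CPM on days 5 and 6 in adherent libraries. BC117090 had 7.60, 9.58 and 19.9 CPM in suspension, against no read on day 4 and 0.101 and 0.210 CPM on days 5 and 6 in adherent libraries. Csta1, named after the human stefin A gene, had 0, 1 and 5 reads in suspension libraries and none in adherent libraries, and it did not pass the filter. A count of 0 allows up to 3 reads, which is 0.0594 to 0.0756 CPM in these libraries. Csta1 ends 25.6 kb before the start of Stfa2l1, so genes with 6 reads in all and with 156566 reads in all lie side by side.

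**Figure D2:**
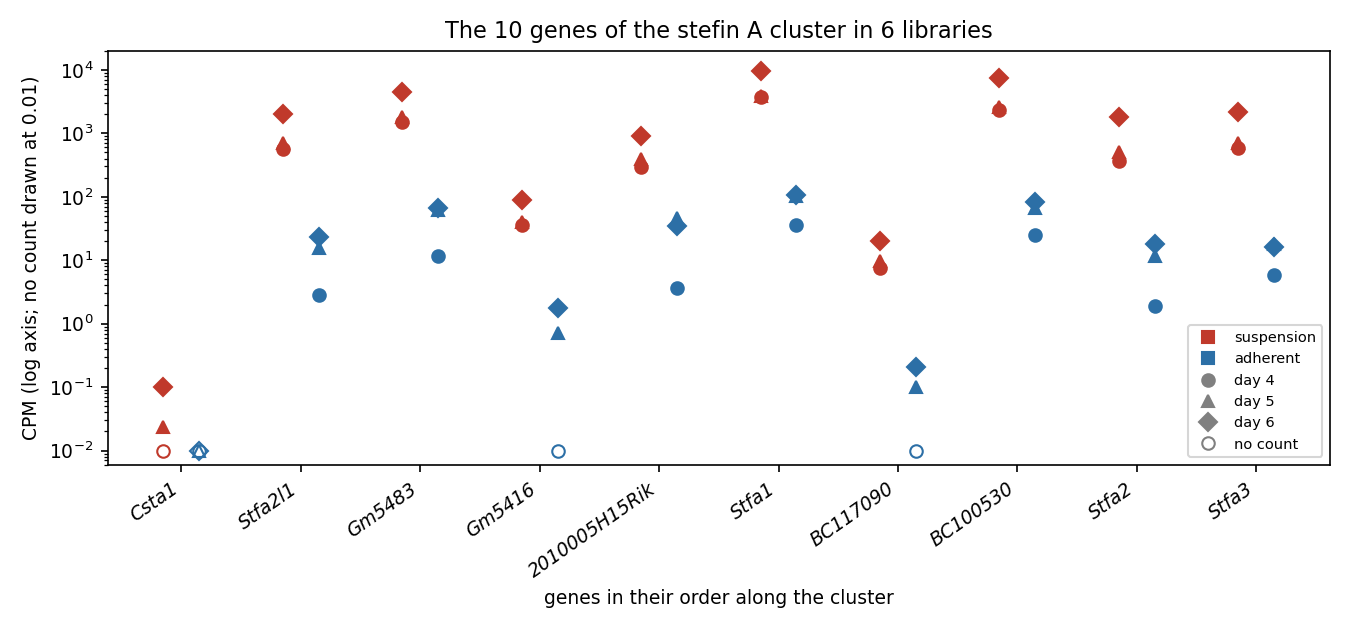
CPM (log axis) of the 10 stefin A family genes in their order along chromosome 16, with suspension libraries in red and adherent libraries in blue, symbols for the day, and open symbols at 0.01 for libraries with no read. Suspension day 6 is the highest library for every gene of the block, and Csta1 is near 0 in all 6.

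The genes that flank the block within 300 kb behaved as a mixed group. Fam162a, a mitochondrial protein gene, had 117, 108 and 109 CPM in suspension libraries on days 4, 5 and 6, against 127, 135 and 124 CPM in adherent libraries. Ccdc58, another gene of a mitochondrial protein, had 32.0, 29.7 and 26.6 CPM in suspension, against 45.2, 50.8 and 40.8 CPM in adherent libraries, and so lay on the other side of the fraction difference. Cd86, the costimulatory ligand of antigen-presenting cells, had 15.7, 14.4 and 13.4 CPM in suspension, against 1.66, 4.48 and 5.45 CPM in adherent libraries. None of these was highest on suspension day 6. Parp14, a mono-ADP-ribosyltransferase gene, had 16.4, 26.2 and 27.9 CPM in suspension, against 7.84, 9.55 and 11.4 CPM in adherent libraries, and Kpna1, an importin gene, had 29.7, 36.2 and 38.4 CPM in suspension, against 19.1, 17.4 and 19.4 CPM. Gm15845, annotated antisense to BC100530, had 0.412, 0.548 and 1.35 CPM in suspension and no read in adherent libraries. The other annotated neighbours with reads were Dtx3l, Parp9, Gm15564, Wdr5b, Gm49662, Ildr1 and Slc15a2. The log2 ratio of suspension over adherent was 1.42 ± 0.23 for Dtx3l, 1.13 ± 0.16 for Parp9 and 0.82 ± 0.24 for Gm15564 (SE). For Wdr5b it was -0.18 ± 0.23 and for Slc15a2 -0.85 ± 0.49, while Gm49662 and Ildr1 did not pass the filter.

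Reads counted in the 10 stefin A genes were summed to follow the block as a whole. The sum was 386119, 444463 and 1445795 reads in suspension libraries on days 4, 5 and 6, against 3759, 12873 and 14969 reads in adherent libraries. That was 0.881, 1.01 and 2.50% of all gene reads in suspension, against 0.00967, 0.0353 and 0.0366% in adherent libraries. The share was highest on suspension day 6, and every suspension library was above every adherent one.

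The division of those reads among the genes changed less than their sum. Stfa1 took 39.2, 36.4 and 33.7% of the stefin A reads in suspension libraries on days 4, 5 and 6, against 41.6, 31.8 and 30.7% in adherent libraries. Stfa2 took 3.91 to 6.39% in suspension and 2.18 to 5.10% in adherent libraries. For Stfa3 the share was 6.22 to 7.59% in suspension and 4.62 to 6.86% in adherent libraries, and for Stfa2l1 5.95 to 7.07% and 3.22 to 6.67%. The ranges of the fractions overlapped for all 4 genes. Within each day the suspension share was above the adherent one for Stfa2, at 3.91 against 2.18% on day 4, 4.73 against 3.60% on day 5 and 6.39 against 5.10% on day 6. The same held for Stfa2l1, at 5.95 against 3.22%, 6.66 against 4.89% and 7.07 against 6.67%. 2010005H15Rik had ranges that did not overlap, 3.09 to 3.66% in suspension and 4.26 to 14.1% in adherent libraries. BC117090 did not overlap in the other direction, at 0.0697 to 0.0904% in suspension and 0 to 0.0601% in adherent libraries. It had 0, 4 and 9 reads in adherent libraries on days 4, 5 and 6. The exact binomial intervals there ended at 0.0981, 0.0795 and 0.114%, within or above the suspension range, so no reading is drawn from it. Reads were not collapsed by molecular identifier in these files, so counting intervals on such shares, such as 39.1 to 39.4% (exact binomial) for Stfa1 in suspension day 4, cover counting error only.

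The summed level of neutrophil markers moved with the block, though single markers did not all follow it. The 15 neutrophil genes listed, among them S100a8, S100a9, Ngp, Camp, Ltf and Retnlg, summed to 27215, 35040.5 and 79786 CPM in suspension libraries on days 4, 5 and 6, against 275, 929.5 and 1191 CPM in adherent libraries. All 15 were higher in suspension by edgeR, beside 27.1% of all genes, and Cxcr2 was at 0 in adherent day 4. On adherent days 4, 5 and 6 Cxcr2 had 0, 28 and 36 reads and Ly6g 3, 30 and 6. Both passed the filter on low counts through suspension, so no reading is drawn from the count of 15. The primary granule genes Elane, Mpo and Prtn3 were lower on day 6 than on day 5 in suspension, at ratios of 0.577, 0.538 and 0.585, where the stefin A genes were higher. In adherent libraries day 6 over day 4 was 1.03 for Ngp, 0.79 for Camp and 0.68 for Ltf. Per 100 CPM of that sum the 10 stefin A genes had 34.4, 30.2 and 35.9 CPM in suspension libraries, against 31.5, 34.9 and 29.3 CPM in adherent libraries. The summed stefin A level differed by 330 times between the lowest and highest library, and its ratio to the neutrophil sum by 1.23 times. Adherent libraries held 0.928, 3.06 and 1.22% of the same-day suspension level for stefin A, and 1.01, 2.65 and 1.49% for the neutrophil sum. The neutrophil sum rests mostly on S100a8 and S100a9. Per 100 CPM of S100a8 stefin A stood at 88.7, 86.9 and 101 CPM in suspension and 118, 108 and 86.8 CPM in adherent libraries. The ratio was less even for Ngp, Mmp8 and Elane. Per 100 CPM of Ngp, a secondary granule gene, stefin A stood at 623, 466 and 564 CPM in suspension and 342, 1290 and 1340 CPM in adherent libraries. Per 100 CPM of Mmp8, the neutrophil collagenase, it stood at 1560, 1300 and 3050 CPM in suspension and 201, 273 and 237 CPM in adherent libraries. Per 100 CPM of Elane, neutrophil elastase, the values were 3720, 2290 and 10700 CPM in suspension and 376000, 1940 and 3050 CPM in adherent libraries. Elane had 1 read in adherent day 4, under the 3 reads that a count of 0 allows, so that ratio is not determined. The narrow range thus belongs to the summed list and to S100a8, and not to each marker. The part of neutrophil number in the stefin A difference was not tested.

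**Figure D3:**
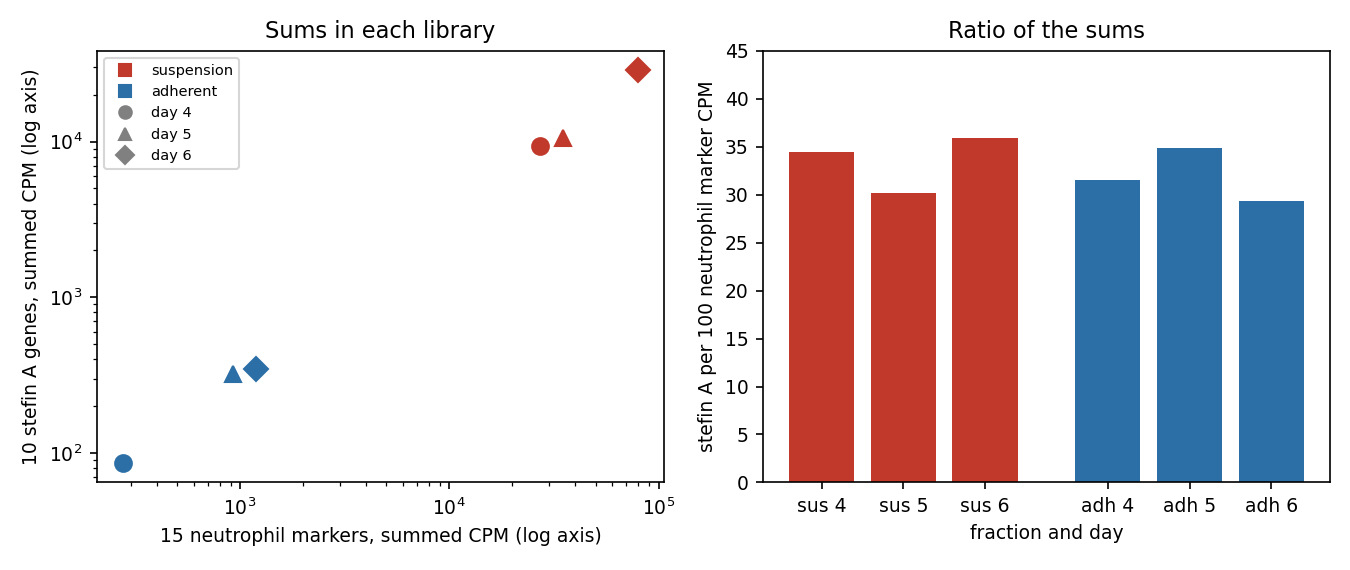
Left, summed CPM of the 10 stefin A genes against summed CPM of 15 neutrophil markers (both log axes), 1 point per library, red for suspension and blue for adherent. Right, stefin A CPM per 100 neutrophil marker CPM, which lies between 29.3 and 35.9 in the 6 libraries.

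Other marker lists were set beside the genes in the same way. Macrophage markers summed to 5174 to 6932 CPM in suspension and 1514 to 3538 CPM in adherent libraries, and endothelial markers to 13.3 to 20.4 CPM and 660.3 to 1722 CPM. Fibroblast markers summed to 79.9 to 232 CPM in suspension and 2299 to 3284 CPM in adherent libraries, and lung epithelial markers to 15.8 to 272 CPM and 439 to 1562 CPM. Dendritic cell markers summed to 100.1 to 181 CPM in suspension and 8.19 to 20 CPM in adherent libraries, and eosinophil and mast cell markers to 271 to 361 CPM and 32.1 to 254 CPM. Most of the dendritic sum came from Cd74, H2-Ab1 and H2-Aa, with means of 67.7, 28.2 and 22.1 CPM in suspension libraries. Zbtb46 and Ccr7 of that list went the other way, with means of 0.534 and 0.0323 CPM in suspension, against 1.84 and 0.216 CPM in adherent libraries. Stefin A is also known from squamous epithelium, whose markers summed to 4.12 to 7.22 CPM in suspension and 12.8 to 17.8 CPM in adherent libraries, with Krt5 at 0 in all 6. Krt10 made up most of that sum, with 4.55, 2.76 and 3.13 CPM in suspension libraries on days 4, 5 and 6, against 9.60, 12.2 and 14.2 CPM in adherent libraries. Ivl, which encodes involucrin, went the other way, with 0.848, 1.10 and 1.66 CPM in suspension, against 0.0692, 0.151 and 0.419 CPM in adherent libraries. Of the 4 squamous markers that could be tested, 1 was higher and 2 were lower in suspension by edgeR, beside 27.1 and 29.7% of all genes. Ivl had 3, 6 and 18 reads in adherent libraries, and Lor had 3, 0 and 2 reads in suspension libraries. Each of these passed the filter on low counts through the fraction where it was higher, so no reading is drawn from the count.

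The genes with the most similar profile were sought among 5908 genes with a mean of at least 20 CPM, by the root mean square difference of centred log2(CPM + 0.5) values over the 6 libraries. For Stfa1 they were BC100530 at 0.12, S100a9 at 0.24 and Cebpe, a transcription factor gene of late granulocyte precursors, at 0.25. For Stfa2 they were S100a9 at 0.31, S100a8 at 0.32 and BC100530 at 0.44. Stfa3 was nearest to BC100530 at 0.18, S100a9 at 0.30 and Cebpe at 0.34, and Stfa2l1 to S100a8 at 0.20, S100a9 at 0.23 and BC100530 at 0.38. The calprotectin genes S100a8 and S100a9 thus recurred beside the stefin A genes. These profiles include the fraction difference by which the genes were chosen, so the recurrence is a description only.

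Cstb and Cst3 had other nearest genes. For Cstb they were Lmbrd1, a lysosomal cobalamin exporter gene, at 0.08, Esyt1 at 0.09 and B2m, the light chain gene of MHC class I, at 0.09. For Cst3 they included Hist1h2bc at 0.10 and Svil at 0.10. Among the 6 genes themselves the closest pair was Stfa2 with Stfa2l1 at 0.14, followed by Stfa1 with Stfa3 at 0.18. Cstb and Cst3 were 0.29 apart, and each was 2.60 to 3.13 away from every stefin A gene. These distances describe 6 libraries, which differ in fraction, sort and depth together.

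The proximal promoters of the listed stefin A genes are shown as a description of related genes in 1 cluster. Each line has 70 bases before and 30 bases from the RefSeq start (GRCm38.p6, 5′ to 3′ on the gene's strand). Capitals mark the 3 runs of at least 10 bases that all 4 genes share in this window, AGAGGAGGAG, ACCTTTAAAACCC and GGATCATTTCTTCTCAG.
Stfa1 (chr16:36277078-36277177, plus): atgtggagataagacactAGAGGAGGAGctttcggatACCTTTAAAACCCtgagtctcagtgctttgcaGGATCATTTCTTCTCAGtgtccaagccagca
Stfa2 (chr16:36408334-36408433, minus): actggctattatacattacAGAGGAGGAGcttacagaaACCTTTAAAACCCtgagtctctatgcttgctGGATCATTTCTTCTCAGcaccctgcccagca
Stfa3 (chr16:36455363-36455462, minus): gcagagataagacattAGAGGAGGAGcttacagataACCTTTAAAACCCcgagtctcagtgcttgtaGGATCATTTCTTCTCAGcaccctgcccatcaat
Stfa2l1 (chr16:36156741-36156840, plus): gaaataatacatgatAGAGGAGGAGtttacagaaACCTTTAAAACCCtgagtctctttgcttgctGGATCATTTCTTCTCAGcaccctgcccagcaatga
The 3 runs stood in the same order in all 4 genes. Searched on both strands of the 32851 RefSeq promoter windows of 300 bases, AGAGGAGGAG was in 1.03%, ACCTTTAAAACCC in 0.0274% and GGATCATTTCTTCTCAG in 0.0183%. The 17-base run was in 6 windows, those of the 4 genes printed, Cstdc5 (BC100530) and Csta3 (Gm5416). The 300-base windows of 2010005H15Rik, which had 289 to 899.7 CPM in suspension libraries, of Csta1, which had 6 reads in all, and of Cst3 held none of the 3 runs, which says only that the letters are not in those windows. The runs do not overlap each other, and a match here is a match of letters, not a site. Over the 300 bases Stfa2 and Stfa2l1 were 91.7% identical, and the other pairs of the 4 genes 80.0 to 82.7%. The runs were taken from windows of these near copies, so no reading is drawn from how rare they are elsewhere.

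The course over days was not used to choose the genes, and it was tested across all genes with edgeR's quasi-likelihood test. In suspension libraries day 5 over day 4 was 1.05 for Stfa1, 1.37 for Stfa2, 1.20 for Stfa3 and 1.27 for Stfa2l1. Day 6 over day 5 was 2.50, 3.65, 3.10 and 2.87 for the same genes. The larger step of all 4 stefin A genes in suspension was therefore the one from day 5 to day 6. In adherent libraries the larger step was the one from day 4 to day 5, at 2.86 for Stfa1, 6.16 for Stfa2, 3.08 for Stfa3 and 5.67 for Stfa2l1. Day 6 over day 5 was 1.04, 1.53, 0.878 and 1.47 there.

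With one slope for both fractions, the log2 change per day was 0.73 ± 0.18 for Stfa1, 1.31 ± 0.24 for Stfa2, 0.85 ± 0.21 for Stfa3 and 1.15 ± 0.24 for Stfa2l1 (SE). Their Benjamini-Hochberg adjusted p-values from edgeR were 0.15, 0.128, 0.154 and 0.136. None of the 6 genes was called at an adjusted p under 0.05, beside 2 of 14912 genes or 0.0134% in all, although all 4 stefin A genes had an unadjusted p under 0.05, beside 20.4% of all genes. DESeq2 called those 4, beside 10.5% of the genes to which it gave an adjusted p. Levels were higher on day 6 than on day 4 in both fractions for each of the 4. Cstb had a slope of 0.20 ± 0.10 (adjusted p = 0.338, edgeR) and Cst3 one of 0.18 ± 0.12 (adjusted p = 0.437, edgeR).

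Slopes fitted for each fraction gave 0.70 ± 0.23 for Stfa1, 1.16 ± 0.28 for Stfa2, 0.95 ± 0.27 for Stfa3 and 0.93 ± 0.27 for Stfa2l1 per day in suspension (log2, SE). The slope there was 0.03 ± 0.10 for Cstb and -0.07 ± 0.07 for Cst3. In suspension edgeR called 0 of the 6 slopes, beside 0.496% of all genes, 4 had an unadjusted p under 0.05, beside 16.5% of all genes, and DESeq2 called 0, beside 5.83%. The lowest of these adjusted p-values was 0.152, for Stfa2 (edgeR). With any 1 adherent library left out, edgeR called 3 of the suspension slopes, those of Stfa2, Stfa3 and Stfa2l1, and with no filter on low counts it called all 4 stefin A genes. The share of all genes called in these fits was not counted, so no reading is drawn from them. Without suspension day 6 these slopes were 0.07 for Stfa1, 0.46 for Stfa2, 0.27 for Stfa3 and 0.34 for Stfa2l1, and without suspension day 4 they were 1.28, 1.83, 1.59 and 1.48.

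In adherent libraries Cst3 rose by 0.43 ± 0.07 on the log2 scale per day (adjusted p = 0.0269, edgeR quasi-likelihood), the 1 called slope among the 6 genes, beside 11.3% of all genes. Its level was higher on each later day, and it went with a suspension level that stayed within 841 to 961 CPM. The call was lost without suspension day 4, 5 or 6 (adjusted p = 0.0765, 0.0771 and 0.0741, edgeR) and without adherent day 4 or 6 (adjusted p = 0.121 and 0.343, edgeR). Adherent slopes were 0.78 ± 0.28 for Stfa1, 1.53 ± 0.36 for Stfa2, 0.70 ± 0.33 for Stfa3, 1.47 ± 0.34 for Stfa2l1 and 0.36 ± 0.10 for Cstb. Their adjusted p-values from edgeR were 0.129, 0.0563, 0.224, 0.0522 and 0.0782. Of all genes 30.4% had an unadjusted p under 0.05 for this slope. DESeq2 called 4 adherent slopes, of Stfa2, Stfa2l1, Cstb and Cst3, beside 18.2% of the genes it gave an adjusted p, and edgeR called 4 when adherent day 5 was left out. For that last fit the share of all genes called was not counted. Without adherent day 4 the slopes were 0.05 for Stfa1, 0.61 for Stfa2, -0.19 for Stfa3 and 0.55 for Stfa2l1, and without adherent day 6 they were 1.52, 2.62, 1.62 and 2.50.

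The slope in suspension minus the slope in adherent libraries was -0.51 ± 0.10 for Cst3 and -0.33 ± 0.14 for Cstb (log2 per day, SE). The adjusted p of the Cst3 difference was 0.0954 (edgeR), 0.0231 (edgeR with no filter on low counts) and 0.000662 (DESeq2). For the stefin A genes the difference was between -0.53 ± 0.43 for Stfa2l1 and 0.25 ± 0.42 for Stfa3. No difference was called by edgeR, beside 0.516% of all genes, 1 had an unadjusted p under 0.05, beside 19.6%, and DESeq2 called 1, beside 7.84% of the genes it gave an adjusted p. For all 4 stefin A genes the sign of the difference turned when 1 of the libraries was left out, so no order of the fractions can be read from it.

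**Figure D4:**
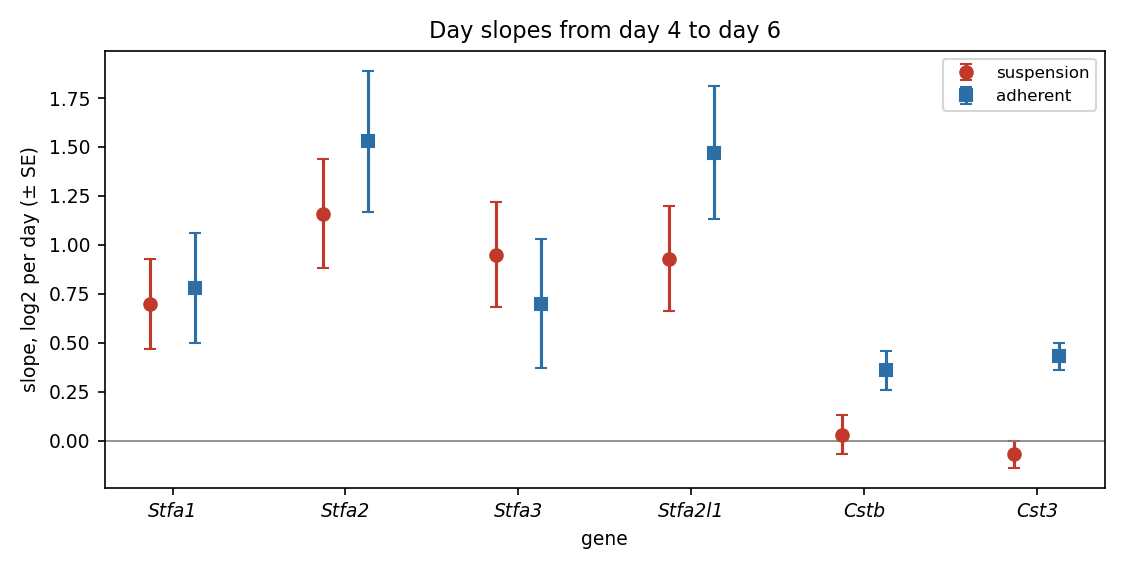
Fitted change per day (log2, ± SE) of the 6 genes in suspension libraries (red circles) and adherent libraries (blue squares). Both stefin A slopes are above 0 in each case with wide errors, while Cstb and Cst3 are near 0 in suspension and at 0.36 and 0.43 in adherent libraries.

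The proteases that cystatins inhibit were examined next, using a list of 11 genes, the cysteine cathepsins and legumain, that does not overlap the 6 genes. By edgeR's quasi-likelihood test 8 of the 11 were higher in suspension than in adherent libraries and 0 lower, beside 27.1% of all genes higher and 29.7% lower. The median log2 ratio of the 11 was 1.23, beside 0 over all genes tested. These 8 lay higher in the fraction where the stefin A genes were higher, but by far smaller ratios. In the same test 9 of 11 macrophage and 15 of 15 neutrophil markers were also higher in suspension, while 10 of 10 endothelial and 10 of 10 fibroblast markers were lower. Some neutrophil markers passed the filter on low counts through suspension, so no reading is drawn from their count. Over suspension days 4, 5 and 6 the proteases summed to 15375, 12573 and 12010 CPM, and the macrophage markers to 5772, 5174 and 6932 CPM. The part of any cell type in the protease result was not tested.

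Ctss, cathepsin S, which trims the invariant chain in antigen-presenting cells, had 2401, 1744 and 1490.3 CPM in suspension libraries on days 4, 5 and 6, against 223, 282 and 582 CPM in adherent libraries. Its log2 ratio was 2.37 ± 0.40 (adjusted p = 0.00348, edgeR), the largest of the list. Ctsc, cathepsin C, which activates the serine proteases of neutrophil granules, had 557, 520.1 and 463 CPM in suspension, against 118, 152 and 204 CPM in adherent libraries. Its log2 ratio was 1.70 ± 0.21 (adjusted p = 0.00128, edgeR). Both genes had no overlap between fractions, and both were highest in suspension day 4, unlike the stefin A genes.

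Ctsb, cathepsin B, an abundant lysosomal protease, had 3841, 3629.8 and 3897 CPM in suspension libraries on days 4, 5 and 6, against 981, 1292 and 2033 CPM in adherent libraries. Ctsl, cathepsin L, had 5299, 3738 and 3066 CPM in suspension, against 1624, 2060.3 and 2213 CPM in adherent libraries. The log2 ratios were 1.40 ± 0.27 for Ctsb and 1.04 ± 0.24 for Ctsl (adjusted p = 0.00534 and 0.0101, edgeR). Suspension libraries were above adherent ones on every day for both, with the gap narrowest on day 6.

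Ctsz, cathepsin X, had 1659.9, 1585 and 1568 CPM in suspension libraries on days 4, 5 and 6, against 398, 543 and 812 CPM in adherent libraries, a log2 ratio of 1.46 ± 0.26 (adjusted p = 0.00401, edgeR). Lgmn, legumain, an asparagine-cutting protease that cystatin C inhibits at a site of its own, had 1219, 1029 and 1152 CPM in suspension, against 301, 424 and 725 CPM in adherent libraries, a log2 ratio of 1.23 ± 0.32 (adjusted p = 0.0161, edgeR). Ctsk and Ctsh were higher by 1.31 ± 0.43 and 0.82 ± 0.26 (log2, adjusted p = 0.0404 and 0.0331, edgeR). These calls were the least firm, since Ctsk lost its call without suspension day 4 or 6 or adherent day 4 or 5, and Ctsh without any 1 suspension library. Without adherent day 5 Lgmn had an adjusted p of 0.0632 (edgeR). Ctso had a log2 ratio of 0.35 ± 0.26, Ctsf -1.24 ± 0.64 and Ctsw -2.26 ± 1.06, none of which was called. Without adherent day 4, Ctsf was called lower at -1.69 (adjusted p = 0.0077, edgeR).

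Like Cst3, most of these proteases had positive day slopes in adherent libraries. Of the 11, 7 rose with day there by edgeR (Ctsb, Ctss, Ctsc, Ctsz, Ctsf, Ctso and Lgmn), beside 7.75% of all genes rising. This count was taken after the values had been seen. It was 1 or 2 when any library other than adherent day 5 was left out, namely 1 without suspension day 4, suspension day 5 or adherent day 6, and 2 without suspension day 6 or adherent day 4. Without adherent day 5 it was 8. The share of all genes rising was not counted in these fits. Macrophage markers, 8 of 11 of which also rose with day in adherent libraries, summed to 1514, 1648 and 3538 CPM on adherent days 4, 5 and 6. Their part in the Cst3 and protease slopes was not tested.

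**Figure D5:**
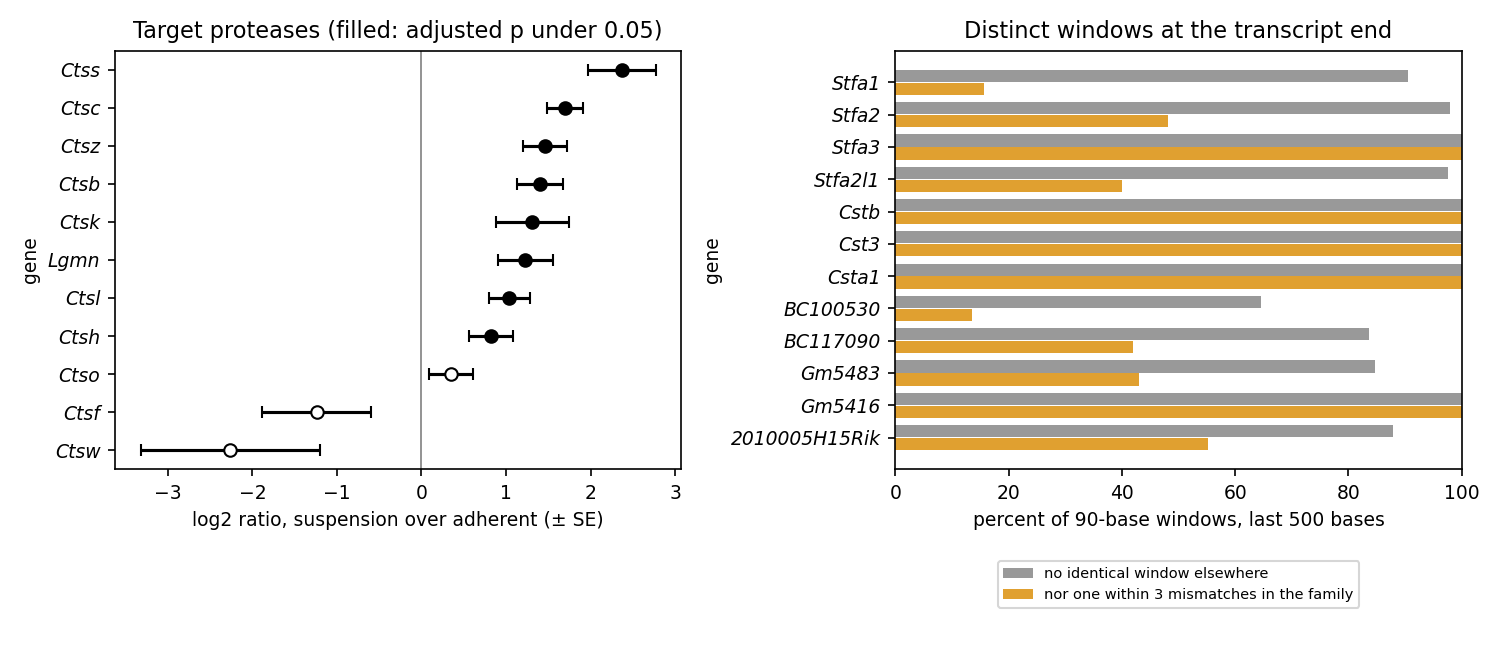
Left, log2 ratio of suspension over adherent (± SE) for the 11 target proteases, filled where the edgeR adjusted p was under 0.05, which holds for 8. Right, percent of 90-base windows in the last 500 transcript bases that are distinct from other genes, exactly (grey) and within 3 mismatches in the family (orange), from 13.6% for BC100530 to 100% for Stfa3, Cstb and Cst3, among others, by the stricter measure.

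Cathepsins of other catalytic classes, which cystatins do not inhibit, were also mostly higher in suspension, 3 of 4 by edgeR, beside 27.1% of all genes. Ctsd, the aspartic protease cathepsin D, had 9203, 9591 and 7952 CPM in suspension libraries on days 4, 5 and 6, against 1317, 1862 and 3102 CPM in adherent libraries, a log2 ratio of 2.09 ± 0.32 (adjusted p = 0.00244, edgeR). Ctsa, a serine carboxypeptidase, was higher by 1.33 ± 0.27 (log2, adjusted p = 0.0066, edgeR). Ctsg, a serine protease of neutrophil primary granules, had 501, 666 and 256 CPM in suspension, against 0.0923, 17.2 and 15.7 CPM in adherent libraries, a log2 ratio of 5.43 ± 1.41 (adjusted p = 0.0168, edgeR). Without adherent day 5 the adjusted p of Ctsg was 0.0514 (edgeR). Unlike the stefin A genes, Ctsg was lowest on day 6 among the suspension libraries. Ctse had a log2 ratio of 1.06 ± 0.77 and was not called, but without adherent day 4 it was called at 2.20 (adjusted p = 0.0341, edgeR).

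Of 14 further genes of the cystatin superfamily, 6 had any read and 4 could be tested. Cst7, cystatin F, a cystatin of immune cells that is directed to lysosomes, had 20.1, 22.7 and 14.3 CPM in suspension libraries on days 4, 5 and 6, against 0.162, 0.882 and 1.03 CPM in adherent libraries. Cst7 was higher in suspension by 4.79 ± 0.60 (log2, adjusted p = 0.00127, edgeR), and it was lowest on suspension day 6, where the stefin A genes were highest. Fetub was lower by 3.70 ± 0.56 on the log2 scale (log2 ratio -3.70, adjusted p = 0.0023, edgeR), at 0.0198 to 0.0969 CPM in suspension and 0.692 to 1.05 CPM in adherent libraries. It had 4, 3 and 1 reads in suspension libraries and passed the filter on low counts through the adherent ones. No reading is therefore drawn from the Fetub call. Cst6 and Kng2 were not called, and Ahsg and Kng1 had too few reads to test. Cst8, Cst9, Cst10, Cst11, Cst12, Cst13, Cstl1 and Hrg had no read in any library.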

How the data were processed

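The deposited files give read counts per Ensembl gene for each library, as unstranded, sense and antisense columns with a line for multimapping reads. The layout is that of STAR, and the submitters' processing notes name bcl2fastq, Cell Ranger, STARsolo and mm10, with no versions. The counts are reads, not molecules, and there are no cell barcodes. The deposited values are whole counts, and no normalization by the authors is recorded. Sense counts were used, and symbols came from GENCODE M21 (31011 of 31053 genes matched). Gene totals were 43805361, 44199524 and 57784974 in suspension libraries on days 4, 5 and 6, and 38885531, 36451255 and 40882433 in adherent libraries.

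Counts were scaled by TMM, filtered with filterByExpr and fitted with edgeR 4.0.16 (quasi-likelihood test, R 4.3.3), with Benjamini-Hochberg adjustment over 14912 genes and a threshold of 0.05. The fraction fit left 4 residual degrees of freedom, the common day slope 3 and the slopes per fraction 2. The fraction and common-slope fits were tried on simulated counts with the same dispersion for all genes and few changed genes. That setting is simpler than these data, so it checks only that the fits run as meant. The alternatives were DESeq2 1.42.0 (size factors, Wald test), other filters, reads on either strand, day as a replicate block, other transcript-end lengths and each library left out. Fractions share a day by their labels, and deviations from fraction means correlated at 0.338, 0.14 and 0.282 within days 4, 5 and 6, against -0.305 to 0.013 between days. Deviations cancel out within a fraction, so part of this contrast is built in. The main fraction fit did not use the shared day, which only the alternative with day as a block did.

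The genes and lists were chosen with earlier results of these data known. Named genes were the 6 genes, all genes with a read within 300 kb of the stefin A genes, the protease, cathepsin and cystatin lists (values in full for those called with a mean of at least 20 CPM), and the 3 nearest profiles of each gene (names of the form Gm or Rik left out, and 1 gene not reported here). Sequences came from RefSeq (GRCm38.p6, promoters of 5 of the 6 genes) and GENCODE M21. Distinct windows were judged against transcripts only. Older symbols from the files are used for Gm5483 (Cstdc4), 2010005H15Rik (Csta2), Gm5416 (Csta3), BC100530 (Cstdc5) and BC117090 (Cstdc6).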

Additional observations from a re-analysis of the deposited data

Results flagged for a closer look

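Reads on the strand opposite to each gene were used only in the alternative that counts reads on either strand, and all 6 genes had some. Over the 6 libraries Stfa1 had 323 antisense reads, Stfa2 1459, Stfa3 580, Stfa2l1 2784, Cstb 400 and Cst3 798. As a percent of sense reads this was 0.0399 in suspension and 0.0390 in adherent libraries for Stfa1, 1.12 and 1.07 for Stfa2, 0.354 and 0.119 for Stfa3, and 1.79 and 1.14 for Stfa2l1. For Cstb it was 0.152 in suspension and 0.139 in adherent libraries, and for Cst3 0.417 and 0.366. The near copies Stfa2 and Stfa2l1, which lie on opposite strands, had the highest percentages, and the source of these reads was not tested.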

How the results depend on the processing

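Of 526 values of single genes recomputed under the alternatives, 465 kept their direction and, where there is a test, their side of the threshold, 33 came to be called, 16 lost their call and 12 changed sign, none of them called. With no filter on low counts edgeR called 4 suspension slopes, 5 adherent slopes and 1 slope difference among the 6 genes, and with at least 10 CPM in 3 libraries 2 adherent slopes. DESeq2 called 4 common slopes, 4 adherent slopes and 1 difference. Shares over all genes were counted only for the main edgeR fits and DESeq2. No reading is drawn from counts under other filters or with 1 library left out. With 1 library left out, called slopes ranged from 0 to 3 in suspension and 0 to 4 in adherent libraries, rising proteases from 1 to 8, proteases lower in suspension from 0 to 1, proteases higher from 6 to 8, and the median log2 ratio of the 6 genes from 5.43 to 6.47. With day as a replicate block that median was 6.23, beside 6.21, and no call of the proteases in the fraction contrast changed. With 1 library left out the slope difference ranged from -0.82 to 0.65 for Stfa1, -1.46 to 0.55 for Stfa2, -0.67 to 1.14 for Stfa3 and -1.57 to 0.38 for Stfa2l1, the adherent slope of Stfa3 from -0.19 to 1.62 and the suspension slope of Cstb from -0.28 to 0.31. Without suspension day 4 the slope difference was 0.54 for Stfa1, 0.32 for Stfa2 and 0.04 for Stfa2l1, and the suspension slope of Cst3 was 0.01. Without suspension day 6 the Stfa3 difference was -0.39, and without adherent day 6 the common slope of Cst3 was 0. The causes were not tested. With reads on either strand Stfa1, Stfa3 and Stfa2l1 took 41.0, 7.69 and 7.51% of stefin A reads in suspension, beside 36.4, 6.81 and 6.56%. BC100530, to which Gm15845 is annotated as antisense, then took 14.6 to 16.2% in suspension and 12.6 to 17.7% in adherent libraries, beside 24.5 to 26.2% and 20.4 to 28.4%. In the last 300 bases 0% of Stfa1 and 15.6% of Stfa2 windows were distinct within 3 mismatches, and 27.5% of Stfa1 windows in the last 1000. At 10 CPM Ctsh and Ctsk had adjusted p-values of 0.0688 and 0.0577 (edgeR). Depth limits Csta1, Ahsg and Kng1, and with 2 to 4 residual degrees of freedom a missed call does not show a level slope.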
